A study of Rattus norvegicus with 17 samples.

Results

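The conjugation enzymes of liver attach a charged or water-soluble group to drugs, hormones, bilirubin and bile acids. The genes described here are those whose symbol in the platform annotation starts with Ugt, Gst or Sult followed by a letter or number, except 1 sulfotransferase gene that is not analysed here. There were 43 such genes with a probe set naming that gene alone (9 Ugt, 21 Gst and 13 Sult), of 14217 genes on the array with such a probe set. Of the 43, 32 (6 Ugt, 18 Gst and 8 Sult) were bright enough to be tested, as were 9736 of the 14217 genes. A probe set was tested when at least 5 arrays had a value above the median of all deposited values, a log2 value of 3.95.

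UDP-glucuronosyltransferases (Ugt) transfer glucuronic acid from UDP-glucuronic acid in the endoplasmic reticulum. Glutathione S-transferases (Gst) join glutathione to electrophiles, mostly in the cytosol. Sulfotransferases (Sult) transfer sulfate from the donor PAPS to phenols, steroids and bile acids. The products leave the hepatocyte through membrane exporters of the Abcc and Abcg families into bile or blood. In cholestasis, sulfation and glucuronidation of bile acids are known routes by which retained bile acids become easier to excrete.

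Liver RNA of 17 rats (Rattus norvegicus) was hybridised to Affymetrix Rat Genome 230 2.0 arrays, with 1 array per rat. Sham rats (n = 6) had an abdominal incision at week 7 and a subcutaneous osmotic mini-pump that delivered saline. Ligated saline rats (n = 6) had the bile duct ligated at week 7 and the same saline pump, and ligated ghrelin rats (n = 5) had the ligation and a pump that delivered ghrelin, a gastric peptide hormone, at 10 µg/kg/day. All rats were killed at week 9, 2 weeks after the operation. All groups carried a pump, and no sham group with ghrelin was analysed here. The labels used here give neither strain nor sex. Arrays are named by group and a running number.

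The median intensity of the arrays was 14.2 to 14.7 in sham, 16.1 to 17.6 in ligated saline and 15.4 to 16.4 in ligated ghrelin rats. In these bulk samples, fewer cells of a type and less RNA per cell cannot be told apart. The summed intensity of 9 hepatocyte markers, a tissue check, was 314979 to 337213 in sham and 284496 to 311929 in ligated saline rats, and 0 of the 9 rose and 3 fell (Ttr, Apoa2 and Apoh). The sum of 9 bile duct cell (cholangiocyte) markers was 457 to 781 in sham and 6039 to 18778 in ligated saline rats. All 9 rose, and Sctr, Cftr and Cldn4 were below the filter level in all 6 sham rats. The sum of 8 stellate cell and myofibroblast markers was 3501 to 4776 in sham, 17925 to 33398 in ligated saline and 14486 to 19820 in ligated ghrelin rats, with 7 higher and 1 lower after ligation. Macrophage (7 of 7), neutrophil (2 of 2) and lymphocyte (3 of 4) markers were also higher, beside 37.5% of all genes higher and 27.2% lower. Endothelial markers were mixed, with 2 of 5 higher and 1 lower. Their sum was 4278 to 5732 in sham and 4130 to 5350 in ligated saline rats. The cholangiocyte, stellate cell, macrophage, neutrophil and lymphocyte markers thus moved in the same comparison as the ligation results below. The part of any of these cell types in those results was not tested.

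Several of these genes sit next to each other as copies of one ancestral gene, and the upstream sequences of 7 of them are printed here because they belong to clusters whose genes moved apart (Gstp), included 2 that rose (Sult2a) or carry a shared stretch (Ugt2b). Each is the 250 bases before the annotated start, from RefSeq on the build GRCr8, 5′ to 3′ on the gene's strand. Promoters were found for 38 of the 43 genes, 41 promoters in all. Capitals mark matches on either strand to TGACTCA (AP-1), GTTAAT (an HNF1 motif) or TTGCNNAA (C/EBP). Gstp1 (chr1:210769706-210769955, minus strand) and Gstp3 (chr1:210787685-210787934, minus strand) are neighbours with 0 protein-coding genes between them, and they moved in opposite directions after ligation.
Gstp1: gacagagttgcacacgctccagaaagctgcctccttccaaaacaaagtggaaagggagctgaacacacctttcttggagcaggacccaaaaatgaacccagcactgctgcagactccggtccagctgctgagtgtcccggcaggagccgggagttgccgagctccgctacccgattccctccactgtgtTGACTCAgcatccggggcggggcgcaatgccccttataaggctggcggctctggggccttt
Gstp3: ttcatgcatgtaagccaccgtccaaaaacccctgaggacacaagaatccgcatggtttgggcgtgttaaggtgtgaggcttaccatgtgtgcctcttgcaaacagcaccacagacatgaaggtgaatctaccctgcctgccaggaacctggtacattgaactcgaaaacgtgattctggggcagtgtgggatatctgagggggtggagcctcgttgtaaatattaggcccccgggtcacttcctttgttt
Gstp1 held TGACTCA 61 to 55 bases before its start, where it overlaps a match to TGANNNNGC, the antioxidant response element core, at 61 to 53. Gstp3 held neither motif in this window. TGACTCA was found in 4.05% of 33469 RefSeq promoters and in 2 of the 41 member promoters, and TGANNNNGC in 34.7% and in 15.

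Sult2a6 (chr1:84097809-84098058) and Sult2a2 (chr1:85104533-85104782), both on the minus strand, rose together after ligation.
Sult2a6: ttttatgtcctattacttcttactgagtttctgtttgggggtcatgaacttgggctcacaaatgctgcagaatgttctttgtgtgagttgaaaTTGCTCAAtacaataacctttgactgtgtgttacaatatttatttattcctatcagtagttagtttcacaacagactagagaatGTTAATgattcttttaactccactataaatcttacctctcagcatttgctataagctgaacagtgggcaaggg
Sult2a2: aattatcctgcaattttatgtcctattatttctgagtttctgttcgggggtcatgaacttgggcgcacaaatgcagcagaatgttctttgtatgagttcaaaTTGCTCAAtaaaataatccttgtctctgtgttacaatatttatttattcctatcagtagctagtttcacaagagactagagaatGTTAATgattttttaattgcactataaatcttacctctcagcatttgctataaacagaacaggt
Both held 1 GTTAAT and 1 TTGCNNAA match. GTTAAT was found in 6.45% of all promoters and in 3 of 41 member promoters, and TTGCNNAA in 9.22% and in 10. Those 10 include Sult2a1, Sult2a2, Sult2a6, Ugt2b, Ugt2b15 and Ugt2b35. Stretches are shared within each of these clusters, so the 10 are not independent. Sult2a1 lies between Sult2a6 and Sult2a2 with 1 other protein-coding gene. It shared 245 of 250 upstream bases with Sult2a6, compared position by position without gaps, and had the C/EBP match but no GTTAAT. Its probe set was below the filter level on all 17 arrays.

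Ugt2b (chr14:20985199-20985448), Ugt2b15 (chr14:21122616-21122865) and Ugt2b35 (chr14:21208191-21208440), on the plus strand, carry the same stretch around a C/EBP match.
Ugt2b: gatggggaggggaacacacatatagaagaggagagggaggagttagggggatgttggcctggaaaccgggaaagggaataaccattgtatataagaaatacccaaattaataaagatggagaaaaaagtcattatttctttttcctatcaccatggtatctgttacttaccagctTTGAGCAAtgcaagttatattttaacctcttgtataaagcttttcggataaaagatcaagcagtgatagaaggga
Ugt2b15: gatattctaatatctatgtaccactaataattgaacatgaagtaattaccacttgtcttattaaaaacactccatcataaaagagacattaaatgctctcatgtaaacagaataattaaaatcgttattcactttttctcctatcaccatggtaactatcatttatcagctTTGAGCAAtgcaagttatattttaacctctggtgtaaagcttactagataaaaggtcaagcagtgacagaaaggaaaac
Ugt2b35: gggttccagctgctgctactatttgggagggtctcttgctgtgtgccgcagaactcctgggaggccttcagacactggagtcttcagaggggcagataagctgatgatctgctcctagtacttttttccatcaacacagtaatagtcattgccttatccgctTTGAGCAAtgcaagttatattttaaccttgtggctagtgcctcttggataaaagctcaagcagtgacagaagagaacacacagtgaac
The match lay 75 to 68, 79 to 72 and 88 to 81 bases before the start of Ugt2b, Ugt2b15 and Ugt2b35. The longest run shared by Ugt2b and Ugt2b15 was 35 bases, and that shared by each of them with Ugt2b35 was 31 bases. Ugt2b7, the neighbour of Ugt2b35 and below the filter, shared a run of 25 bases with each of these promoters but had no C/EBP match. Ugt2b1 and Ugt2b10, further along the same cluster, shared no run over 9 bases with these promoters. Of the other motifs searched, the nuclear receptor motif AGGTCA was in 14.1% of all promoters and 2 of 41 member promoters, and the Ah receptor core GCGTG in 25.9% and 11. A match is a description of the letters and shows no binding.

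Ligated saline rats were set against sham rats to see what 2 weeks of ligation did to these genes. The conjugation enzymes were mostly lower: of 32, 18 fell and 7 rose. Over all 9736 genes the balance was the other way, with 27.2% lower and 37.5% higher (limma, adjusted p under 0.05 by the Benjamini-Hochberg method over 15965 probe sets). The median change was -0.39 over the 32 genes and 0.07 over all genes, on the log2 scale. Setting the array medians equal moved the median of all genes to -0.12 and quantile normalization moved it to -0.05. All genes were then 28.6% higher and 39.9% lower with equal medians, or 32.1% and 36.4% after quantile normalization, while the enzymes were 6 higher and 18 lower, or 7 and 17. In 18 of 32 enzymes the groups did not overlap, and this held for 44.5% of all genes. By family, 4 of 6 Ugt genes fell and 0 rose, 11 of 18 Gst genes fell and 4 rose, and 3 of 8 Sult genes fell and 3 rose.

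**Figure D1:**
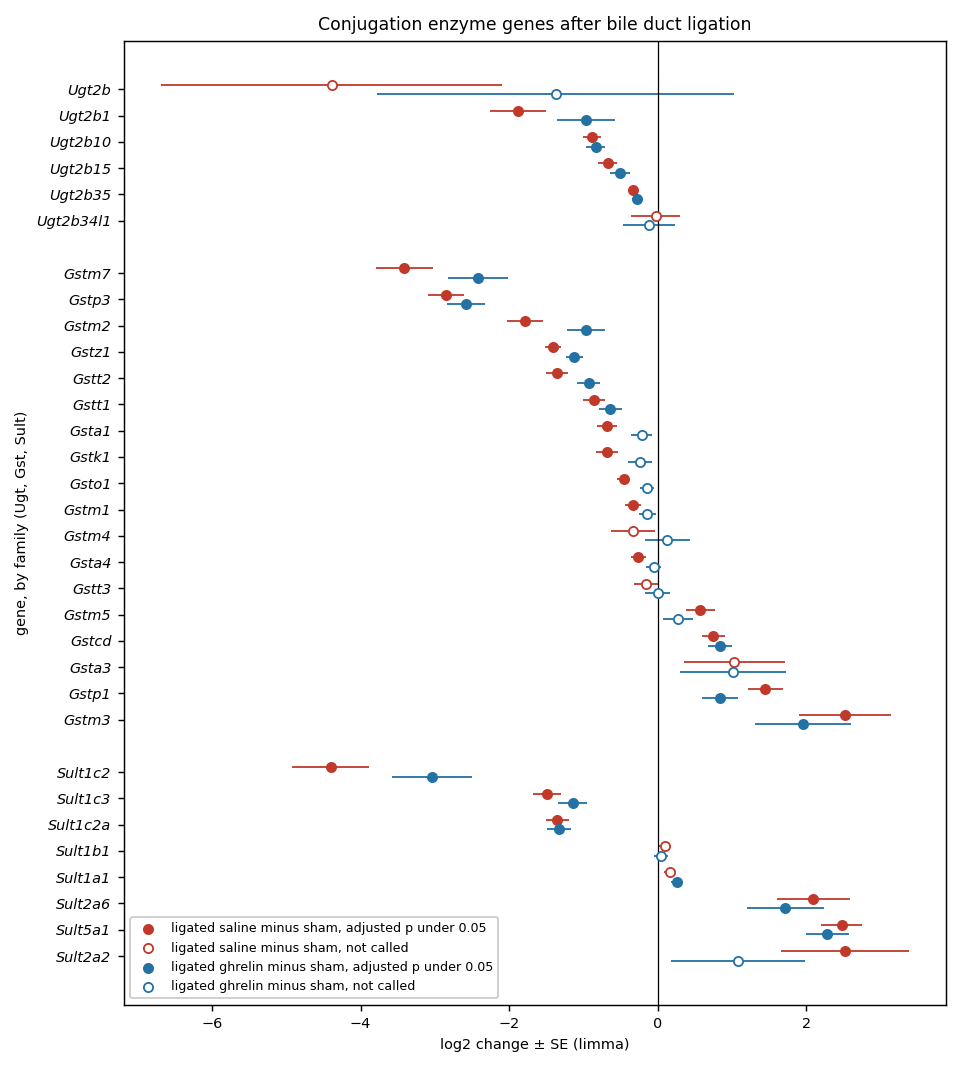
Log2 change ± SE (limma) of the 32 tested Ugt, Gst and Sult genes against the same 6 sham rats, for ligated saline (red, n = 6) and ligated ghrelin rats (blue, n = 5). Filled points passed at an adjusted p under 0.05, and most filled points lie left of 0, with 7 red ones to the right.

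Of the glucuronidation genes, the members that fell were Ugt2b1, Ugt2b10, Ugt2b15 and Ugt2b35, and all belong to the Ugt2b cluster on chromosome 14, whose enzymes act on steroids, bile acids and drugs. Ugt2b1 had a lowest, median and highest log2 intensity of 10.82, 11.26 and 11.96 in sham and 8.39, 9.55 and 10.40 in ligated saline rats. The groups did not overlap, and the level was 3.68-fold lower (change -1.88 ± 0.37, adjusted p = 0.000354). Ugt2b10 was at 11.33, 11.70 and 11.82 in sham and 10.39, 10.78 and 11.06 after ligation. It fell by 0.88 ± 0.12 (adjusted p = 9.53e-06), and all 6 ligated rats lay below all sham rats. Ugt2b15 was at 13.00, 13.20 and 13.26 against 11.85, 12.57 and 12.77, a change of -0.68 ± 0.13 (adjusted p = 0.000242), again without overlap. Ugt2b35 moved least of these 4 genes, from 13.80, 13.88 and 14.05 to 13.37, 13.63 and 13.71 (change -0.33 ± 0.074, adjusted p = 0.00101). Ugt2b34l1 was at 6.57 (median) in sham and 6.66 in ligated rats and did not pass (change -0.03, 95% interval -0.73 to 0.67, adjusted p = 0.945).

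Ugt2b, a glucuronosyltransferase of androsterone listed with the synonym Ugt2b2, differed from rat to rat within each group. Its log2 intensity was 14.27, 9.35, 14.16, 14.11, 14.03 and 14.03 in sham rats 1 to 6. In ligated saline rats 1 to 6 it was 2.94, 14.02, 13.92, 14.02, 5.54 and 3.16, and in ligated ghrelin rats 1 to 5 it was 14.20, 13.84, 13.89, 3.77 and 14.07. All 3 groups held rats near 14 and 1 or more far below it, and the mean change of -4.39 ± 2.29 did not pass (adjusted p = 0.106, 95% interval -9.23 to 0.45). A second Ugt2b probe set was low in the same 5 rats, at 4.74 in sham 2 and 2.59 in ligated ghrelin 4 and at 2.58, 2.60 and 2.60 in the 3 ligated saline rats. As background, this gene is known for a deletion carried by some Wistar rats. The strain of these rats is not in the labels used here. In those same ligated saline rats, Ugt2b1 was at 8.39, 9.44 and 8.63, against 9.66 to 10.40 in the other 3 (described from the values, with no test, since the rats were picked by their Ugt2b level). Gsta3 and Sult1c2, outside this cluster and named after their values were seen, also differed between these rats. Gsta3 was at 6.67, 7.90 and 6.16 against 9.40 to 9.74 in the other 3. Sult1c2 went the opposite way, at 4.76, 5.23 and 5.76 against 2.54 to 2.82. Ligated ghrelin 4 did not repeat this, with Gsta3 at 8.85 and Sult1c2 at 4.55, the lowest of its group. In sham 2, Gsta3 was the lowest of its group (5.42) and Sult1c2 was within the sham range (8.55). How many of all genes part the ligated saline rats in this way was not counted.

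**Figure D2:**
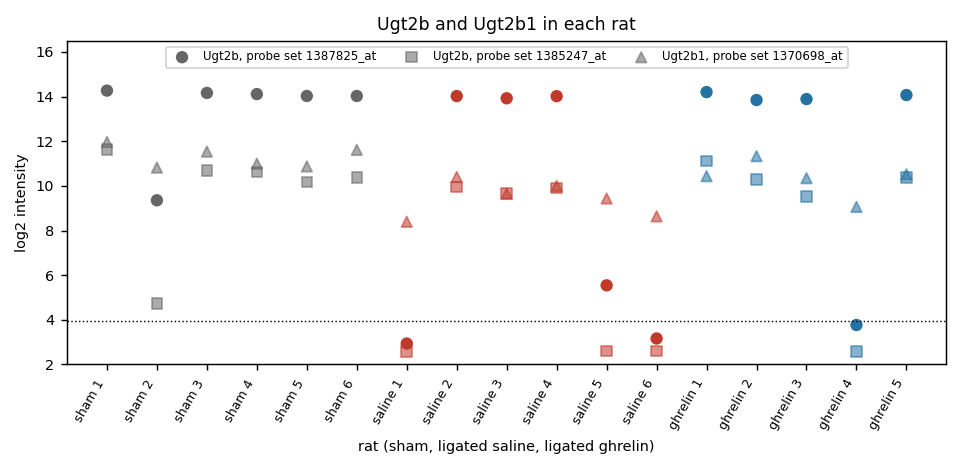
Log2 intensity of both Ugt2b probe sets (circles and squares) and of Ugt2b1 (triangles) in each of the 17 rats, with sham in grey, ligated saline in red and ligated ghrelin in blue; the dotted line is the filter level of 3.95. The first Ugt2b probe set (circles) is near 14 in 12 rats and at 9.35 or below in sham 2, ligated saline 1, 5 and 6, and ligated ghrelin 4, and the second (squares) is at 9.53 to 11.62 in those 12 rats and at 4.74 or below in the 5.

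The Ugt1a genes, among them Ugt1a1, the enzyme of bilirubin glucuronidation, and Ugt1a6, which acts on phenols, share their 3′ exons and were measured together by 2 probe sets naming 8 genes. Neither passed. The log2 level was 12.84 ± 0.14 (SD, n = 6) in sham and 12.74 ± 0.067 (n = 6) in ligated saline rats on 1 probe set, a change of -0.10 ± 0.076 (adjusted p = 0.28, 95% interval -0.26 to 0.06). The second had a change of -0.20 ± 0.13 (adjusted p = 0.186, 95% interval -0.46 to 0.07). A shift between single Ugt1a genes would not be seen by these probe sets. Ugt2a1, Ugt2b7 and Ugt8 were below the filter.

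Of the glutathione transferases, the mu class held both extremes. Its genes lie in the order Gstm5, Gstm6l, Gstm7, Gstm3, Gstm2, Gstm1 and Gstm4 on chromosome 2. Gstm7 was at 9.64, 9.89 and 10.28 (lowest, median and highest) in sham and at 5.06, 6.83 and 7.72 in ligated saline rats. The groups were far apart, a 10.6-fold lower level (change -3.41 ± 0.39, adjusted p = 1.18e-06). Gstm2 was at 12.40, 12.53 and 12.85 against 10.21, 10.75 and 11.33 and fell by 1.79 ± 0.24 (adjusted p = 7.68e-06), without overlap. Gstm3, which lies between these genes, was between 4.74 and 4.77 in all 6 sham rats and at 4.59, 7.33 and 9.83 after ligation. It was higher in 5 of 6 ligated rats and rose by 2.52 ± 0.62 (adjusted p = 0.00203), and the 1 ligated rat below sham makes the groups overlap. The sham values were low and nearly equal (SD 0.0092, against 1.77 in ligated saline rats) and may be background, so the size is approximate. Gstm5 rose by 0.57 ± 0.19 (adjusted p = 0.0177), but the change was 0.21 after quantile normalization (adjusted p = 0.348) and 0.38 with equal array medians (adjusted p = 0.0732). Gstm1 was at 14.05, 14.13 and 14.21 in sham and 13.42, 13.83 and 14.14 after ligation and fell by 0.33 ± 0.11 (adjusted p = 0.017, lower in 5 of 6 rats), with a change of -0.52 at equal array medians. Gstm4 did not pass (-0.33, 95% interval -0.95 to 0.29, adjusted p = 0.336). Mu genes are close in sequence, so their probe sets may pick up more than 1 of them.

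The pi class moved apart. Gstp1, the placental-type transferase that is low in normal rat hepatocytes and present in bile duct cells, was at 8.43, 9.09 and 9.33 in sham and 9.73, 10.69 and 11.09 in ligated saline rats. All ligated rats were higher, 2.73-fold on average (change 1.45 ± 0.23, adjusted p = 4.74e-05). Its neighbour Gstp3 was at 12.33, 12.93 and 13.52 in sham and 9.40, 10.04 and 10.72 after ligation. It was 7.20-fold lower (change -2.85 ± 0.25, adjusted p = 6.22e-08), with no overlap. The promoters of this pair, printed above, shared no run over 8 bases.

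**Figure D3:**
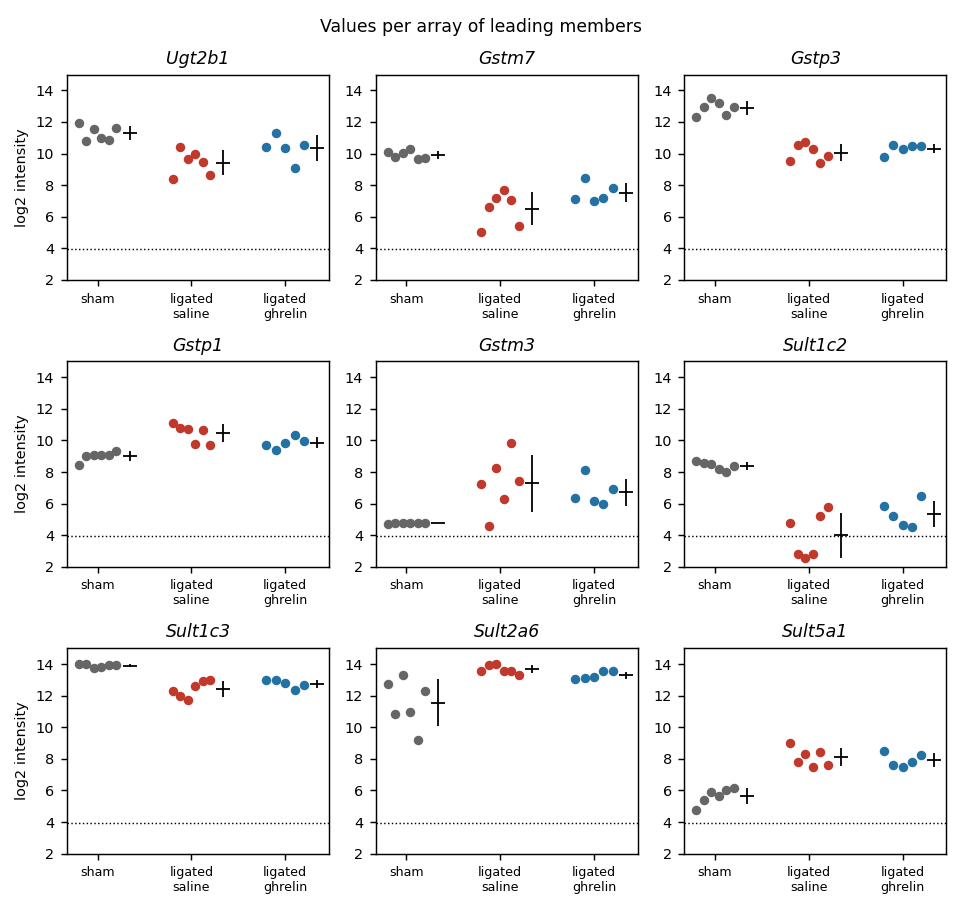
Log2 intensity on each array of 9 genes in 6 sham (grey), 6 ligated saline (red) and 5 ligated ghrelin rats (blue), with the mean and SD beside each group and the filter level of 3.95 dotted. Gstm7, Gstp3, Sult1c2 and Sult1c3 lie wholly below sham after ligation, Gstp1 and Sult5a1 wholly above it, and Gstm3 and Sult2a6 overlap sham in ligated saline rats.

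Of the theta class, Gstt2 fell from 10.42, 10.59 and 10.96 to 8.81, 9.32 and 9.54 (change -1.36 ± 0.14, adjusted p = 6.01e-07). A second, dimmer Gstt2 probe set changed by -0.66 ± 0.16 (adjusted p = 0.00147), a smaller size, and the mean of both gave -1.01. Gstt1 fell from 9.63, 10.01 and 10.06 to 8.70, 9.09 and 9.43 (change -0.86 ± 0.15, adjusted p = 0.000112). Neither gene's groups overlapped, and Gstt3, in the same cluster on chromosome 20, did not pass (-0.16, 95% interval -0.49 to 0.18). Gstz1, the maleylacetoacetate isomerase of tyrosine breakdown, had the lowest adjusted p of all 32 genes. It fell from 12.42, 12.65 and 12.76 to 10.91, 11.22 and 11.57, or 2.65-fold (change -1.41 ± 0.11, adjusted p = 2.68e-08). Gstk1, a transferase of mitochondria and peroxisomes, fell from 12.15, 12.21 and 12.58 to 11.09, 11.75 and 11.81 (change -0.69 ± 0.15, adjusted p = 0.000898). Gsto1, an omega-class enzyme that reduces dehydroascorbate, fell by 0.46 ± 0.088 (adjusted p = 0.000285). The groups of Gstz1, Gstk1 and Gsto1 did not overlap.

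Alpha-class genes moved unevenly. Gsta1 fell by 0.69 ± 0.14 (adjusted p = 0.000399), lower in 6 of 6 rats but with overlapping groups. A probe set shared by Gsta2 and Gsta5 fell by 2.19 ± 0.33 (4.55-fold, adjusted p = 2.58e-05) from 13.82, 13.90 and 14.48 to 10.22, 12.03 and 12.76. Gsta4, which conjugates 4-hydroxynonenal from lipid peroxidation, was at 12.21, 12.24 and 12.44 in sham and 11.76, 12.00 and 12.37 after ligation. It fell by 0.26 ± 0.096 (adjusted p = 0.0275), a call lost after quantile normalization (-0.13, adjusted p = 0.217) and without sham 1 (adjusted p = 0.0621), sham 6 (0.0501), ligated saline 1 (0.0704), ligated saline 2 (0.0538) or ligated saline 6 (0.0625). Gsta3 did not pass (1.03, 95% interval -0.41 to 2.47, adjusted p = 0.198). Gstcd, named for a transferase-like domain, rose from 3.59, 4.08 and 4.23 to 4.44, 4.64 and 5.32 (change 0.75 ± 0.16, adjusted p = 0.00055). Its values lie near the filter level, and the change was 0.48 after quantile normalization and 0.42 with a pseudocount of 16.

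Of the sulfotransferases, the 1C genes fell and the 2A genes and Sult5a1 rose. Sult1c2, a phenol-type sulfotransferase, was at 8.0, 8.45 and 8.71 in sham and 2.54, 3.79 and 5.76 in ligated saline rats. It was 21.1-fold lower (change -4.40 ± 0.52, adjusted p = 1.76e-06), and 3 of 6 ligated arrays lay below the filter level, so the size is approximate. A second probe set, shared by Sult1c2 and a gene named RGD1562392, a synonym of Sult1c2a, changed by -4.33 ± 0.58 (adjusted p = 7.29e-06). Sult1c3, known for activating N-hydroxyarylamines and for higher levels in male than female rat liver, was at 13.72, 13.95 and 14.02 in sham and 11.71, 12.44 and 13.01 after ligation. It fell 2.80-fold (change -1.48 ± 0.19, adjusted p = 4.05e-06). Sult1c2a fell from 10.50, 10.85 and 11.16 to 9.00, 9.57 and 9.85 (change -1.35 ± 0.16, adjusted p = 1.66e-06). The sham and ligated values of these 3 genes, which lie on chromosome 9, did not overlap.

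Sult2a6 and Sult2a2 belong to the sulfotransferases of hydroxysteroids and bile acids, known to be higher in female than male rat liver. Sult2a6 was spread widely in sham rats, at 12.76, 10.85, 13.33, 10.97, 9.22 and 12.26, and lay between 13.31 and 14 in the 6 ligated saline rats. It rose by 2.10 ± 0.49 (4.27-fold, adjusted p = 0.00148); sham 3 reached the ligated range, so the groups overlapped. Sult2a2 was at 4.39, 4.69 and 6.73 in sham and 5.47, 7.05 and 10.15 after ligation and rose by 2.52 ± 0.86 (adjusted p = 0.0182), with overlap. The 2A genes are near copies, so a probe set may pick up more than 1 of them. Sult5a1 rose from 4.77, 5.75 and 6.14 to 7.51, 8.06 and 9.01 (5.57-fold, change 2.48 ± 0.28, adjusted p = 1.04e-06), without overlap.

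The common phenol sulfotransferases did not pass. Sult1a1 was at 13.45, 13.60 and 13.79 in sham and 13.53, 13.81 and 13.90 after ligation, a change of 0.16 ± 0.079 (adjusted p = 0.0829) that became -0.03 with equal array medians and passed after quantile normalization (0.21, adjusted p = 0.0243), without a filter (adjusted p = 0.0433), without sham 2 (0.0446) or without ligated saline 1 (0.0204). Sult1b1, which also sulfates thyroid hormones, was at 13.38, 13.51 and 13.73 and then 13.46, 13.64 and 13.80. Its change was 0.09 (95% interval -0.10 to 0.29, adjusted p = 0.396), and -0.10 with equal array medians. Sult2b1, Sult2a1, Sult1d1, Sult4a1 and Sult6b2 were below the filter.

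**Figure D4:**
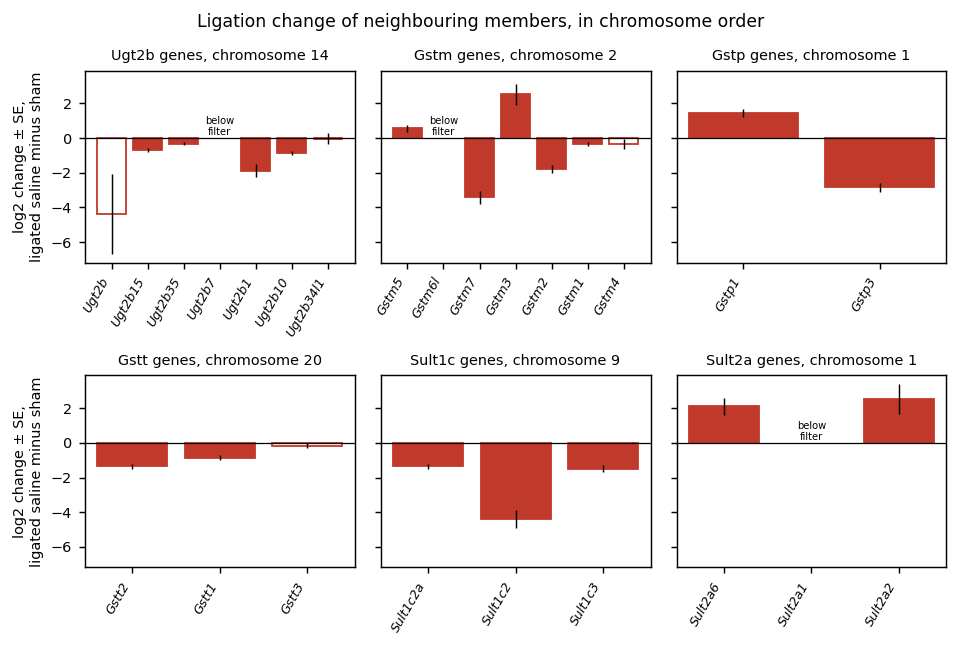
Log2 change ± SE after ligation (ligated saline minus sham) of genes that lie in clusters, drawn in chromosome order with equal spacing, with filled bars for adjusted p under 0.05, open bars for genes that did not pass and a note for genes below the filter. The Sult1c panel holds decreases of -1.35, -4.40 and -1.48, while the Gstm and Gstp panels hold changes in both directions.

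Ligated saline 1 had the lowest value of its group for 18 of the 32 enzymes, against 20.4% of all genes. It also had the highest cholangiocyte marker sum (18780) and the lowest hepatocyte marker sum (284500) of the group, and the part of either in the enzyme values was not tested. Without this rat 17 enzymes fell and 8 rose, with Gsta4 lost and Sult1a1 gained. The median SD over the 32 enzymes within a group was 0.217 in sham, 0.357 in ligated saline and 0.300 in ligated ghrelin rats, and over all genes 0.196, 0.198 and 0.191.

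Genes that supply, reverse or export conjugation changed in the same livers. The counts below stand beside 27.2% of all genes lower and 37.5% higher. Both measured genes of UDP-glucuronic acid supply fell. Ugp2, which makes UDP-glucose, changed by -1.42 ± 0.16 (adjusted p = 1.13e-06) and Ugdh, which oxidises it to UDP-glucuronic acid, by -0.96 ± 0.077 (adjusted p = 2.86e-08). Of 5 genes of glutathione synthesis and recycling, 4 fell and 1 rose. The subunits of the rate-limiting enzyme, Gclc and Gclm, changed by -1.54 ± 0.17 and -1.37 ± 0.16, and glutathione reductase (Gsr) and synthetase (Gss) by -0.52 ± 0.16 and -0.34 ± 0.14. Ggt1, which breaks down extracellular glutathione and is known from bile duct cells, rose from a mean of 3.25, with 5 of 6 sham arrays below the filter level, to 7.49 (adjusted p = 1.03e-07).

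The 5 sulfate donor genes moved both ways, with 3 lower and 2 higher. Papss2, the PAPS synthase best known from liver, fell by 1.39 ± 0.099 (adjusted p = 7.61e-09) and the sulfate transporter Slc26a1 changed by -1.64 ± 0.17, and Bpnt1, which clears the spent donor, by -0.80 ± 0.09. Papss1, the other PAPS synthase, rose by 2.57 ± 0.20 (adjusted p = 2.43e-08) and the Golgi PAPS transporter Slc35b2 by 0.23 ± 0.077. Of 4 genes that hydrolyse conjugates, Arsb (1.22 ± 0.11) and beta-glucuronidase (Gusb, 0.53 ± 0.065) rose, steroid sulfatase (Sts) fell by 1.19 ± 0.25, and Arsa did not pass (-0.12, adjusted p = 0.288). Of 6 exporters, Abcc1 and Abcc3 rose, Abcc2, Abcg2 and Abcc6 fell, and Abcc4 did not pass (0.39, adjusted p = 0.112). In sham rats, 6 of 6 arrays lay below the filter level for Abcc1 and 3 of 6 for Abcc3. Abcg2, a canalicular exporter of sulfated conjugates, fell by 1.86 ± 0.32 (adjusted p = 9.18e-05).

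Other conjugating enzymes were mostly lower, with 8 of 11 down and 1 up, beside 27.2% and 37.5% of all genes. Inmt changed most, by -7.17 ± 0.47 (adjusted p = 3.21e-09). All 6 ligated saline arrays lay below the filter level for Inmt, so its size is approximate. The glycine N-acyltransferase Glyat changed by -2.14 ± 0.22, thiopurine methyltransferase (Tpmt) by -1.01 ± 0.13, and the bile acid conjugating enzyme Baat by -0.35 ± 0.092. Epoxide hydrolase (Ephx1), which was counted in this list, rose by 0.62 ± 0.13 (adjusted p = 0.000558). Of 13 transcription factors known to act on conjugation genes, 3 rose and 7 fell. The factors that rose were Fos (3.20 ± 0.38) and Jun (2.13 ± 0.21), the partners in AP-1, and Nfe2l2 (Nrf2, 0.95 ± 0.19). Of the sham arrays, 3 of 6 lay below the filter level for Fos, so its size is approximate. Those that fell included Cebpa (-1.61 ± 0.24), Rxra (-1.50 ± 0.29), the xenobiotic receptors Nr1i3 (-1.36 ± 0.42) and Nr1i2 (-1.30 ± 0.17), and Hnf4a (-0.79 ± 0.097). Of 9 Nrf2 targets outside the 3 families, 2 rose and 5 fell. Hmox1 rose by 1.40 ± 0.24 (adjusted p = 0.000106), and Nqo1, a common marker, did not pass (0.38 ± 0.32, adjusted p = 0.307). Ephx1, which rose, and Nqo1 are also counted among the other conjugating enzymes. Gclc and Gclm, which fell, are also counted under glutathione synthesis and recycling.

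The comparison of ligated ghrelin with ligated saline rats asks whether ghrelin altered these genes after ligation. No conjugation enzyme passed in limma: 0 of 32 were higher, where 1.76% of all genes were, and 0 were lower, where 0.585% were. At an unadjusted p under 0.05 there were 10 of 32, beside 22.0% of all genes, and 0 passed with a trend and robust prior. The median change was 0.18 over the 32 enzymes and 0.01 over all genes. Groups did not overlap for 1 enzyme, Gsto1, beside 4.53% of all genes.

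The enzymes with the lowest adjusted p were Gsto1, Gstm2 and Gsta1, chosen here after their values were seen. Gsto1 was at 11.24, 11.41 and 11.57 (lowest, median and highest) in ligated saline and at 11.63, 11.82, 11.73, 11.77 and 11.68 in the 5 ligated ghrelin rats. Every ghrelin rat lay above every saline rat, by 0.31 ± 0.092 on average (adjusted p = 0.0756, 95% interval 0.12 to 0.51), and with equal array medians it passed (0.38, adjusted p = 0.0397). Gstm2 was at 11.44, 12.29, 10.73, 11.36 and 12.24 under ghrelin, against a saline median of 10.75. Its difference was 0.82 ± 0.25 (adjusted p = 0.0819), and 1.05 without ligated ghrelin 3 (adjusted p = 0.0483). Gsta1 was at 13.76, 13.96, 13.95, 13.90 and 14.20 under ghrelin, against a saline median of 13.49, a difference of 0.47 ± 0.14 (adjusted p = 0.084).

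For other genes that changed after ligation, no ghrelin difference passed, and the width of the intervals varied. Gstt2 differed by 0.42 (95% interval 0.11 to 0.74, adjusted p = 0.122) and Gstk1 by 0.45 (0.11 to 0.78, adjusted p = 0.123). Sult1c2 was at 5.88, 5.21, 4.67, 4.55 and 6.46 under ghrelin, a difference of 1.37 (95% interval 0.22 to 2.51, adjusted p = 0.16). Gstm7 was at 7.13, 8.43, 6.97, 7.20 and 7.83, a difference of 0.999 (0.14 to 1.85, adjusted p = 0.168). Gstp1 was at 9.69, 9.41, 9.81, 10.35 and 9.98, a difference of -0.61 (-1.12 to -0.09, adjusted p = 0.166). These intervals are not adjusted for the number of genes, and the values of each gene overlapped the saline rats. Ugt2b1 was at 10.43, 11.33, 10.34, 9.06 and 10.52 (difference 0.92, 95% interval 0.09 to 1.74, adjusted p = 0.19). Gstp3, Sult1c3 and Sult5a1 differed by 0.26 (-0.28 to 0.81), 0.34 (-0.08 to 0.75) and -0.20 (-0.81 to 0.42). Gstm3, Sult2a2 and Sult2a6 differed by -0.57 (-1.93 to 0.80), -1.44 (-3.35 to 0.48) and -0.38 (-1.47 to 0.72).

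Among the 5 ghrelin rats, ligated ghrelin 3 had the lowest value for 17 of the 32 enzymes (20.3% of all genes) and ligated ghrelin 2 the highest for 15 (19.8%). Ligated ghrelin 3 also had the largest 3′ minus 5′ difference of the beta-actin and GAPDH controls, which reflects how intact the RNA was, at 2.62 and 0.62 log2 units. The other 16 arrays lay at 1.75 to 2.37 and 0.02 to 0.28. Ligated ghrelin 2 had the highest hepatocyte marker sum of the ghrelin rats (331100) and the lowest stellate cell sum (14490). The part of these features in the enzyme values was not tested. Of the genes around conjugation, 1 passed in this comparison, where 1.76% of all genes were higher and 0.585% lower. It was the sulfate transporter Slc26a1, 1 of 5 sulfate donor genes, higher by 0.69 ± 0.17 (adjusted p = 0.0494). That adjusted p is close to the threshold of 0.05, and no alternative processing is given for this gene. In the same comparison 2 of 8 stellate cell and myofibroblast markers were lower, Col3a1 with a difference of -0.68 (adjusted p = 0.0342) and Rgs5 with one of -0.70 (adjusted p = 0.0389), and their part in this difference was not tested.

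The comparison of ligated ghrelin rats with the same 6 sham rats holds ligation and ghrelin together. Of 32 enzymes, 13 were lower and 6 higher, beside 21.2% and 35.0% of all genes, and groups did not overlap for 16, beside 39.0%. By family, 4 Ugt genes fell and 0 rose, 6 Gst genes fell and 3 rose, and 3 Sult genes fell and 3 rose. Since it shares the sham rats with the first comparison, the values are set side by side and no likeness is computed. Against sham, Gstm7 changed by -3.41 ± 0.39 in saline and -2.41 ± 0.40 in ghrelin rats, Gstp3 by -2.85 and -2.58, Gstz1 by -1.41 and -1.12 (± 0.12) and Gstp1 by 1.45 and 0.84 (± 0.24). Sult1c2 changed by -4.40 and -3.04 ± 0.54, Sult1c3 by -1.48 and -1.15 ± 0.20, and Sult5a1 by 2.48 and 2.28 ± 0.29. Ugt2b10 changed by -0.88 and -0.83 ± 0.13.

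The genes called in saline rats and not in ghrelin rats against sham were Gsta1, Gsta4, Gstk1, Gstm1, Gstm5, Gsto1 and Sult2a2. With equal array medians Gsto1 passed in ghrelin rats too (-0.26, adjusted p = 0.0274, where it was -0.14 with the deposited values). The difference itself is the ghrelin comparison above, in which none of them passed with the deposited values. Gstk1 was at 11.89, 12.49, 12.16, 11.60 and 12.19 under ghrelin, -0.24 ± 0.16 from sham (adjusted p = 0.217). Sult2a2 was at 4.82, 5.44, 4.52, 6.87 and 9.10, from within the sham range to above it (1.08 ± 0.91, adjusted p = 0.329). Sult1a1 was called in ghrelin rats, at 13.82, 13.89, 13.81, 14.03 and 13.85, all above the sham maximum of 13.79 (0.26 ± 0.083, adjusted p = 0.0133), but not with equal array medians (0.14, adjusted p = 0.185). Ugt2b1 was near the threshold (-0.96 ± 0.39, adjusted p = 0.0477), and leaving out sham 1, 3, 4 or 6, ligated saline 3 or 5, or ligated ghrelin 1, 3, 4 or 5 ended its call (adjusted p 0.0507 to 0.154), as did quantile normalization (0.0542) and no filter (0.0514). Gstm3 was at 6.37, 8.14, 6.17, 5.96 and 6.90, all above sham (1.95 ± 0.65, adjusted p = 0.0177), and at 1.60 without ligated ghrelin 2 (adjusted p = 0.054). Its size is approximate here too, since the low sham values are the same.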

How the data were processed

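Liver RNA of 17 rats was measured on Affymetrix Rat Genome 230 2.0 arrays. The authors deposited 1 linear intensity for each probe set and array, computed with GCRMA per the submitters' processing notes, with no settings stated. The deposited array medians differed between groups, which can shift all changes one way. The values were converted to log2 without a pseudocount. Of 31099 probe sets, 57 controls were left out, and 15965 of 31042 passed the filter. In the platform annotation 20826 probe sets name 1 gene, 436 several and 9780 none. Where several kept probe sets named a gene, the brightest on average stood for it. All 43 symbols were found by identifier in the RefSeq annotation of GRCr8, which changed 0 of them.

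The model (limma 3.58.1, R 4.3.3, lmFit and eBayes) had 1 mean for each group (14 residual and 2.54 prior degrees of freedom), Benjamini-Hochberg adjustment over all kept probe sets and calls at an adjusted p under 0.05. The model was run on simulated data with independent normal noise, the same spread in all groups and changes in few probe sets. That run does not test the unequal group spreads, the values near the filter level or the many changes found here. Intervals are 95% and come from the moderated variances. The number of arrays limits the precision. Each array is a separate rat.

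Genes described array by array were, per family, up to 5 called increases and 5 called decreases with groups that do not overlap, for ligation and for ghrelin, and a fixed list: Ugt1a1, Ugt1a6, Ugt2b1, Ugt2b17, Gsta2, Gsta4, Gstm1, Gstp1, Gstt1, Gstk1, Gstz1, Sult1a1, Sult1b1, Sult1c2, Sult1c3 and Sult2b1, where measured. The symbol Ugt2b17 is not in the annotation. Other members were named to account for a subfamily, after their values were seen. The members, the lists of pathway and cell genes and the motifs were chosen with earlier results of these data known. Alternatives were both scalings, no filter or a stricter one (log2 above 6), a pseudocount of 16, the mean of a gene's probe sets, a fit of only the groups compared, a trend and robust prior, and leaving out each array.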

Additional observations from a re-analysis of the deposited data

Results flagged for a closer look

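Within the 96 groups checked (32 enzymes in 3 groups), 8 had a lowest or highest array set apart from the rest by more than Dixon's 95% critical value allows, where chance flags about 1 in 20, or 5%. For Ugt2b these were sham 2 at 9.35, with the next array at 14, and ligated ghrelin 4 at 3.77, with the next at 13.8. For Gstm5 these were sham 2 at 4.91 (next 5.62) and ligated ghrelin 4 at 5.99 (next 5.84). The other arrays that stood apart were ligated saline 1 for Gstk1 (11.1, next 11.5), sham 1 for Gstp1 (8.43, next 9.01), sham 3 for Gstt1 (9.63, next 9.92) and ligated ghrelin 2 for Sult1b1 (13.8, next 13.6). All values are log2 intensities. The 3 low Ugt2b values in ligated saline rats are not among these, because 3 of 6 rats were low.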

How the results depend on the processing

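Counts of called enzymes stayed within 1.5 times of the values reported, except for those given here. Without a filter, 7 Ugt and 7 Sult genes fell after ligation (4 and 3 with it), and against sham 20 enzymes, 7 of them Sult, fell in ghrelin rats (13 and 3). The genes so added lie near or below the filter level, where ligated arrays were dimmer; Ugt8, for example, was at 2.60 to 2.69 in sham and 2.45 to 2.49 in ligated saline rats. The stricter filter, which tests fewer genes, left 2 Gst genes higher after ligation (4). With equal array medians 1 Gst gene was higher under ghrelin (0), and leaving out each array in turn gave 0 to 1, the 1 being Gstm2 without ligated ghrelin 3. Leaving out arrays gave 7 to 8 enzymes higher and 17 to 18 lower for ligation, and 5 to 6 and 12 to 13 for ghrelin rats against sham. The unadjusted count for ghrelin was 6 to 13. Of the values of single enzymes under the alternatives, 2324 kept their direction and side of the threshold, 22 lost a call, 7 gained one and 41 changed sign. The enzymes whose change turned sign under a scaling were none of them called in that comparison. With equal array medians these were Sult1a1 (-0.026) and Sult1b1 (-0.098) for ligation, Gsta3 (0.049) and Sult1b1 (0.016) for ghrelin, and Sult1b1 (-0.081) for ghrelin rats against sham. After quantile normalization they were Gsta3 (0.019) for ghrelin, and Gsta4 (0.028), Gstm5 (-0.014) and Gstt3 (0.099) for ghrelin rats against sham. The cause was not tested.

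Leaving out each array turned the sign of other values that did not pass. For ligation the lowest and highest values were Ugt2b34l1 -0.17 to 0.16. For ghrelin the lowest and highest values were Gsta3 -0.43 to 0.43, Gstcd -0.016 to 0.21, Sult1c2a -0.078 to 0.15, Ugt2b10 -0.022 to 0.13 and Ugt2b34l1 -0.28 to 0.22. For ghrelin rats against sham the lowest and highest values were Gsta4 -0.085 to 0.0011, Gstt3 -0.081 to 0.074, Sult1b1 -0.011 to 0.078, Ugt2b -2.17 to 0.68 and Ugt2b34l1 -0.26 to 0.20. No paired analysis was possible because the numbers in the sample titles run on through the series and are not shared between groups. Low signal limits Gstcd, Gstm3, Sult1c2 and Sult2a2, whose values in a group lie near the filter level. The array has 11 members below it, and no sham group with ghrelin was analysed here.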
